A study of Homo sapiens with 6 samples.

Results

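The 10 genes described here are TCF7L2 and TCF7, which encode transcription factors of the WNT pathway, and 8 genes linked to that pathway. These are its inhibitors AXIN2, RNF43, ZNRF3, NKD1 and NOTUM, the receptors LGR4 and LGR5, and TNFRSF19, of the TNF receptor family. All 10 were taken by name from the first column of the expression table, where each had 1 row of 27238, and none was chosen by a cut on its values. RNA came from QBC-939, a cell line labelled as cholangiocarcinoma (bile duct cancer), kept in medium with serum. Cells received an shRNA against Bmi1 (3 libraries) or a scrambled shRNA as control (3 libraries), and RNA was taken after 48 h. The series' text describes separate transfections, all of 1 line, and at one point calls the control an siRNA. The labels give shRNA for both groups, and the difference in wording is not settled here. Whether 1 or several hairpins targeted Bmi1 is not given in the sources used.

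WNT ligands bind Frizzled and LRP receptors and stop a destruction complex, built on AXIN and APC, from degrading beta-catenin, which then joins TCF factors on DNA. Many of the genes switched on in this way act back on the pathway: AXIN2 rebuilds the destruction complex, RNF43 and ZNRF3 remove Frizzled from the cell surface, NKD1 binds Dishevelled, and NOTUM inactivates secreted WNT. LGR4 and LGR5 are receptors for R-spondins, which take RNF43 and ZNRF3 out of action, and LGR5 and TNFRSF19 (TROY) mark stem cells of the intestinal crypt. In biliary epithelium some of these genes are known for their activity during repair or in tumours.

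In the GENCODE 29 annotation (GRCh38), TCF7L2 (ENSG00000148737.16) lies on chromosome 10 from 112950250 to 113167678 and TCF7 on chromosome 5 from 134114711 to 134151865, both on the forward strand. RNF43 spans 58352500 to 58417595 and AXIN2 65528563 to 65561647, both on the reverse strand of chromosome 17, and ZNRF3 28883592 to 29057487 on the forward strand of chromosome 22. LGR4 lies on chromosome 11 (27365961 to 27472775, reverse) and LGR5 on chromosome 12 (71439770 to 71586310, forward). NKD1 (chromosome 16, 50548330 to 50649249, forward), NOTUM (chromosome 17, 81952507 to 81961840, reverse) and TNFRSF19 (chromosome 13, 23570370 to 23676104, forward) complete the set. The deposited table has no coordinates, so these positions describe the genes and not the authors' gene models.

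TCF7L2 and RNF43 had the largest falls of the 10 genes, and the 250 bases before annotated starts of both are shown because TCF factors bind DNA through a short motif with the core CTTTG. The sequences are from RefSeq (GRCh38.p14), read 5′ to 3′ on the strand of the gene, with each CTTTG, or its reverse complement CAAAG, in capitals. The windows are the first start of TCF7L2 (chr10:112949997-112950246, forward), an internal start of TCF7L2 (chr10:113126383-113126632, forward) and an internal start of RNF43 (chr17:58402722-58402971, reverse).
TCF7L2 first start: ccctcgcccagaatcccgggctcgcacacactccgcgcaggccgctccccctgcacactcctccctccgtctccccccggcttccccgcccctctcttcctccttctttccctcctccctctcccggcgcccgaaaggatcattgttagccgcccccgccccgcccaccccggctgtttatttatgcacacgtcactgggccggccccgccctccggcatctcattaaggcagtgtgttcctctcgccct
TCF7L2 internal start: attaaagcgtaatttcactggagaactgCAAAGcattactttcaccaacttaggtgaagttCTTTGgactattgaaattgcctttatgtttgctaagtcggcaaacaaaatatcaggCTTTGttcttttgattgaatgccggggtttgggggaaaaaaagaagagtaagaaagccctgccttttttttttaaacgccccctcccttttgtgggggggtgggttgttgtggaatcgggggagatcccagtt
RNF43 internal start: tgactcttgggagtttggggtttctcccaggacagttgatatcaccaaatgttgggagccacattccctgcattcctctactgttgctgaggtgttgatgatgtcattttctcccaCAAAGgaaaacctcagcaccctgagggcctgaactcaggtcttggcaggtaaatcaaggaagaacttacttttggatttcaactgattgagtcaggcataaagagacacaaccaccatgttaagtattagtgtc

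The first window of TCF7L2 held no CTTTG on either strand, the printed internal one held 3 and that of RNF43 held 1. A further window of each gene overlapped an exon of that gene and was not printed. These were an upstream start of RNF43 (chr17:58417535-58417784) and another internal start of TCF7L2 (chr10:113129021-113129270), and each held 1. Of 35116 RefSeq promoter windows of the same 250 bases, 42.1% held the core on at least 1 strand, so its presence is common. The longer form CTTTGAT, in 2.26% of windows, was in none of the 3 printed. These matches describe letters only. The values per gene do not tell which start was used, nor the shorter TCF7 and TCF7L2 forms that lack the beta-catenin binding part from the full ones.

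The table gives FPKM (fragments per kilobase of transcript, scaled to the fragments of the library), which can be compared between genes. FPKM summed to 332910 to 341268 per control library and 352800 to 360371 per Bmi1 shRNA library, and the number of reads is unknown. BMI1, which encodes a Polycomb repressive complex 1 protein, measured 6.65, 5.34 and 6.09 FPKM in control and 1.49, 1.19 and 2.65 FPKM after its shRNA. Of 13 biliary markers, 10 had a row. KRT19 averaged 287 FPKM in control, while KRT7 stood at 2.74 FPKM and SCTR, ONECUT1 and GGT1 had no row. Among intestinal markers LGALS4 rose from 397 to 568 FPKM (limma, adjusted p = 0.000332), VIL1 fell from 21.1 to 17.9 FPKM (0.0372) and HNF4A from 1.76 to 0.989 FPKM (0.00384). KRT20 averaged 155 and 154 FPKM and was not called. With the trend on GC content and length (described below) removed, HNF4A lost its call (limma, adjusted p = 0.342). KRT20 was then called lower (limma, adjusted p = 0.0383), and LGALS4 and VIL1 kept their calls. In control CDX2 averaged 0.0800 FPKM, and MUC2 and CDH17 lay under 0.1 FPKM in every library. The 4 fibroblast markers with a row summed to 0.485 to 0.596 FPKM in control and 0.675 to 0.829 FPKM with Bmi1 shRNA, and the 4 endothelial ones to 0.0725 to 0.119 and 0.0292 to 0.0792 FPKM. Of 8 leukocyte markers 4 had a row and PTPRC had none. LYZ, also a product of secretory epithelium, averaged 1468 FPKM in control and 1532 FPKM with Bmi1 shRNA and was not called. CD68, a lysosomal protein of macrophages, fell from 11.5 to 7.53 FPKM (limma, adjusted p = 0.00198). With the same trend removed LYZ was called lower, at a log2 fold change of -0.53 (limma, adjusted p = 0.000621), and CD68 stayed lower (limma, adjusted p = 0.00539). Summed hepatocyte markers, nearly all of it SERPINA1 and TTR, ran from 156 to 166 FPKM in control and from 228 to 240 FPKM with Bmi1 shRNA. Their part in the results below was not tested.

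Among the transcription factors, TCF7L2 fell and TCF7 did not pass the test. TCF7L2 (also called TCF4) is the main TCF of intestinal epithelium. Control libraries held 5.37, 4.41 and 4.86 FPKM of it, against 1.75, 1.79 and 2.15 FPKM with Bmi1 shRNA. Every control library was more than 2 FPKM above every Bmi1 shRNA library. The mean went from 4.88 ± 0.481 to 1.90 ± 0.222 FPKM (SD, n = 3 each), 38.8% of control. On the log2(FPKM + 1) scale, which understates changes of low genes, its change came to -1.02 (standard error 0.09; limma, Benjamini-Hochberg adjusted p = 0.00042), and TCF7L2 was the 41st largest of 3143 falls called. The measure is bulk RNA, in which fewer cells with a transcript and less transcript per cell cannot be told apart.

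TCF7 (TCF1), better known from T cells, measured 1.44, 2.06 and 2.02 FPKM in control and 1.35, 2.04 and 1.52 FPKM with Bmi1 shRNA, with the groups overlapping. Its log2 fold change was -0.11 with a 95% interval from -0.43 to 0.21 (limma, adjusted p = 0.518). With the trend described below removed the value was 0.19 (limma, adjusted p = 0.295). Exons of TCF7 overlap those of SKP1 on the opposite strand, which measured 10.1, 7.00 and 6.86 FPKM in control and 10.9, 12.8 and 12.1 FPKM with Bmi1 shRNA. Use of strand in counting is not stated in the sources.

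**Figure D1:**
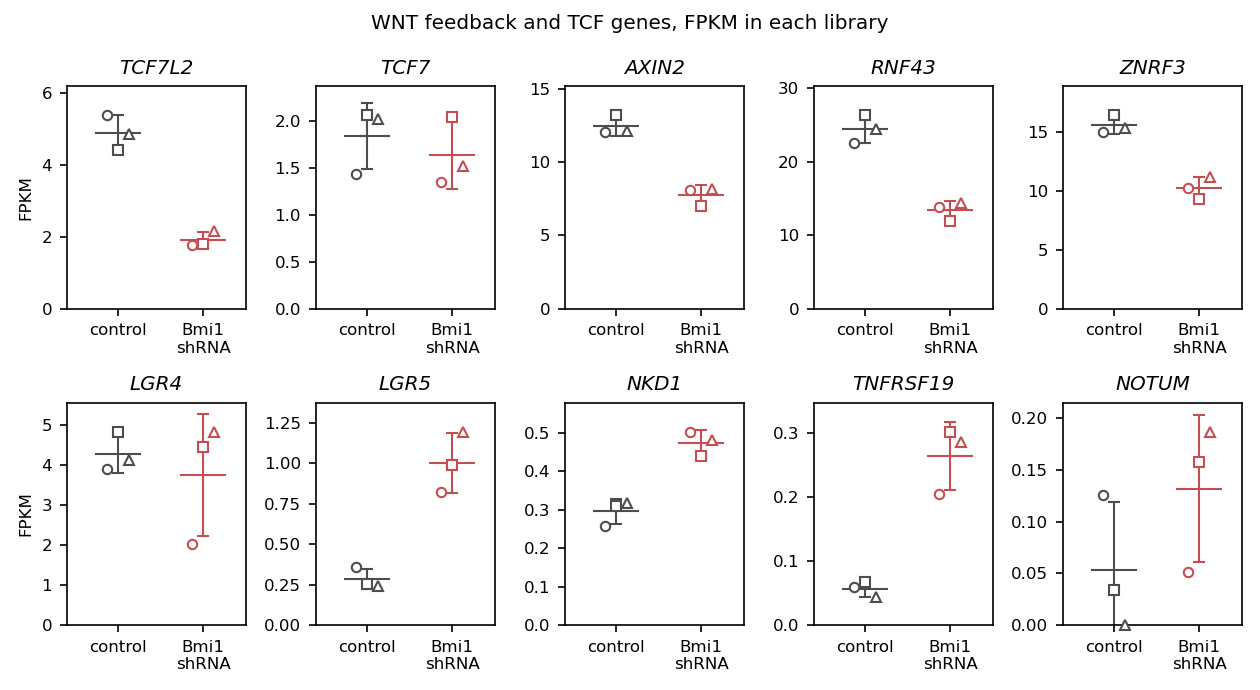
FPKM of the 10 genes (y axis of each panel, from 0) in the control and Bmi1 shRNA libraries (x axis); circles, squares and triangles are replicates 1, 2 and 3, and bars are the mean ± SD of 3 libraries. TCF7L2, AXIN2, RNF43 and ZNRF3 lie lower in every Bmi1 shRNA library, LGR5, NKD1 and TNFRSF19 higher, and TCF7, LGR4 and NOTUM overlap.

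The 3 feedback genes with the highest levels all fell. AXIN2, the inducible scaffold of the destruction complex and a common readout of beta-catenin activity, measured 12.0, 13.2 and 12.1 FPKM in control and 8.11, 6.97 and 8.17 FPKM with Bmi1 shRNA, with no overlap between groups. Its mean fell from 12.5 ± 0.652 to 7.75 ± 0.677 FPKM (SD, n = 3 each), to 62.2% of control (log2 fold change -0.62, standard error 0.08; limma, adjusted p = 0.00111). In GENCODE, exons of AXIN2 overlap those of AC004805.1 on the same strand, a gene with no row of its own.

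RNF43, a membrane ubiquitin ligase that is often mutated in gastrointestinal and biliary tumours, was the most abundant of the 10 genes. It measured 22.6, 26.3 and 24.5 FPKM in control and 13.8, 11.9 and 14.4 FPKM with Bmi1 shRNA. The lowest control library thus lay well above the highest Bmi1 shRNA library. The mean fell from 24.5 ± 1.89 to 13.4 ± 1.31 FPKM (SD, n = 3 each), to 54.6% of control (log2 fold change -0.83, standard error 0.09; limma, adjusted p = 0.000744). Exons of RNF43 overlap those of SUPT4H1 and AC004687.2 on the same strand in GENCODE, so reads there could go to any of these genes. AC004687.2 had no row, and TSPOAP1-AS1, which overlaps on the opposite strand, measured at most 0.460 FPKM. SUPT4H1 measured 25.2, 27.8 and 26.6 FPKM in control and 34.2, 30.2 and 32.4 FPKM with Bmi1 shRNA.

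ZNRF3, the paralog of RNF43 with the same task at the membrane, measured 15.0, 16.4 and 15.4 FPKM in control. With Bmi1 shRNA it measured 10.2, 9.26 and 11.2 FPKM, again without overlap. The mean fell from 15.6 ± 0.761 to 10.2 ± 0.946 FPKM (SD, n = 3 each), to 65.5% of control (log2 fold change -0.57, standard error 0.08; limma, adjusted p = 0.00158).

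Of the R-spondin receptors LGR4 did not pass the test and LGR5 was higher in the fit with no filter. LGR4, the broadly expressed receptor, measured 3.88, 4.83 and 4.11 FPKM in control and 2.01, 4.43 and 4.82 FPKM with Bmi1 shRNA. Replicate 1 of the Bmi1 shRNA group lay below every other library, and the other 2 lay within the control range. The log2 fold change of -0.20 had a 95% interval from -0.80 to 0.40 (limma, adjusted p = 0.512), and without Bmi1 shRNA replicate 1 it was 0.096 (limma, adjusted p = 0.455), so its sign rested on that library.

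LGR5, the crypt stem cell receptor, stood far lower and was higher with Bmi1 shRNA. It measured 0.358, 0.254 and 0.241 FPKM in control and 0.824, 0.985 and 1.19 FPKM with Bmi1 shRNA. The groups did not overlap and the means, 0.284 ± 0.0640 and 1.001 ± 0.186 FPKM (SD, n = 3 each), differed 3.52-fold. With an overall mean under 1 FPKM, LGR5 was left out of the main test. In the fit over all 27238 rows with no filter its log2 fold change reached 0.64, standard error 0.09 (limma, adjusted p = 0.00575), and 1.52 with a pseudocount of 0.1, which damps low genes less.

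NKD1, NOTUM and TNFRSF19 were also below the filter. TNFRSF19, an orphan receptor of the TNF receptor family, was listed at 0.0593, 0.0668 and 0.0429 FPKM in control and at 0.204, 0.302 and 0.285 FPKM with Bmi1 shRNA. Its groups lay well apart at a very low level, with a ratio of means of 4.68 (log2 fold change 0.26, standard error 0.04, in the fit with no filter; limma, adjusted p = 0.00608). With a pseudocount of 0.1 that fold change was 1.21. NKD1, the Dishevelled-binding inhibitor, was listed at 0.259, 0.310 and 0.318 FPKM in control and at 0.503, 0.439 and 0.480 FPKM with Bmi1 shRNA, without overlap. Its ratio of means was 1.60 (log2 fold change 0.19, standard error 0.04; limma with no filter, adjusted p = 0.0277). With the trend on GC content and length removed its value was 0.43. That step used a transcript length of 17105 bases for NKD1, where the next longest of the members, ZNRF3, had 6851. In the same fit LGR5 was at 0.60 and TNFRSF19 at 0.19. The call of NKD1 ended with a pseudocount of 0.1 (limma, adjusted p = 0.0706) and on dropping any single library except Bmi1 shRNA replicate 2 (from 0.0538 to 0.0626). NOTUM, the secreted WNT-inactivating enzyme, was listed at 0.126, 0.0338 and 0 FPKM in control and at 0.0512, 0.158 and 0.187 FPKM with Bmi1 shRNA. These NOTUM values overlapped and did not pass (limma with no filter, adjusted p = 0.339). At such levels an FPKM may rest on few fragments, and with depth unknown no counting interval can be given.

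In sum over members, 6 of 10 passed the filter, of which 4 were called lower, none higher and 2 were not called. Across all 11016 tested rows 28.5% were called lower and 28.6% higher at a limma adjusted p under 0.05. The median log2 fold change of the 6 was -0.60 against -0.02 over all tested rows. At an unadjusted p under 0.05, as at the adjusted one, the same 4 of 6 passed, beside 62.6% of all tested rows. The groups did not overlap, with Bmi1 shRNA lower, for 4 of the 6, where 33.1% of tested rows did so. With no filter 3 of the 4 low members were called higher, beside 12.6% of all 27238 rows. That share includes rows above the filter, and the share among rows under 1 FPKM alone was not counted. For these same 3 genes the groups did not overlap, as for 10.5% of the 16222 rows under 1 FPKM. A large share of the table moved in each direction, and the members were listed with earlier results of these data known, so these counts do not set them apart from the table.

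Fold changes in this table ran with the GC content of the transcript (Spearman's rho -0.473 across tested genes, which are not independent replicates). With each library's trend on GC content and length removed, 20.5% of 10225 rows were called lower, and TCF7L2, AXIN2, RNF43 and ZNRF3 were still among them. TCF7L2, at 45.8% GC, went from -1.02 to -0.97 on the log2 scale (limma, adjusted p = 0.000831). RNF43 (50.7% GC) went from -0.83 to -0.50 (adjusted p = 0.00195, limma), AXIN2 (53.1% GC) from -0.62 to -0.31 (adjusted p = 0.00727, limma) and ZNRF3 (53.5% GC) from -0.57 to -0.17 (adjusted p = 0.0262, limma). The size of the last 3 falls thus depended on this step by more than 1.5 times, and that of TCF7L2 did not.

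**Figure D2:**
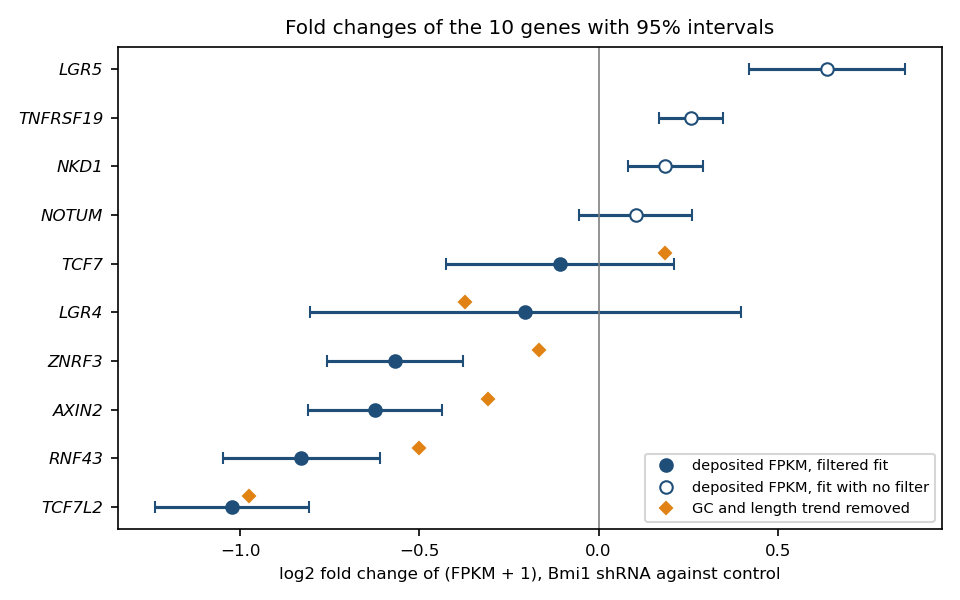
Log2 fold change of FPKM + 1 (x axis) of each gene (y axis) with 95% intervals from limma; filled circles are from the filtered fit, open circles from the fit with no filter, and diamonds show the value with the GC and length trend removed. TCF7L2 keeps its value at -0.97, whereas ZNRF3 moves from -0.57 to -0.17.

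Levels kept much of their order. In control RNF43 stood first, followed by ZNRF3 and AXIN2, each with a range of 3 libraries apart from the next. TCF7L2 and LGR4 overlapped next. TCF7 was the sixth, NKD1 and LGR5 overlapped below it, and TNFRSF19 and NOTUM overlapped at the bottom. With Bmi1 shRNA the first 3 places were the same, but TCF7L2 now overlapped TCF7 as well as LGR4, and LGR5 lay above NKD1 with no overlap. Within groups the tested members often rose or fell in one library together: control replicate 2 was the highest of its group for 5 of 6, as for 40.5% of tested rows, and Bmi1 shRNA replicate 3 for 5 of 6, as for 44.8% of tested rows.

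Because FPKM is per length, the balance within 3 pairs of related genes could be compared. The log2 ratio of TCF7 to TCF7L2, each as FPKM + 1, was -1.39, -0.82 and -0.96 in control and -0.23, 0.13 and -0.32 with Bmi1 shRNA. All Bmi1 shRNA libraries lay above all control libraries, a difference of 0.91 with a standard error of 0.22. Of the summed FPKM of both genes, TCF7L2 made up 72.6% ± 5.61 in control and 53.9% ± 6.38 with Bmi1 shRNA (SD, n = 3 each), while the sum went from 6.72 ± 0.216 to 3.53 ± 0.382 FPKM.

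The ratio of LGR5 to LGR4 was -1.85, -2.22 and -2.04 in control and -0.72, -1.45 and -1.41 with Bmi1 shRNA, a difference of 0.84 with a standard error of 0.26, or 0.61 without Bmi1 shRNA replicate 1 and 1.79 with a pseudocount of 0.1. LGR5 supplied 6.32% ± 1.85 of the summed FPKM of both receptors in control and 22.4% ± 5.86 with Bmi1 shRNA (SD, n = 3 each). The sum itself was 4.56 ± 0.456 and 4.76 ± 1.69 FPKM, with overlapping groups. RNF43 fell further than ZNRF3: their log2 ratio was 0.56, 0.65 and 0.64 in control and 0.40, 0.33 and 0.34 with Bmi1 shRNA, a difference of -0.26 with a standard error of 0.04. Together these ligases went from 40.0 ± 2.63 to 23.6 ± 2.24 FPKM. For each of the 3 ratios the groups did not overlap, and the two-sided exact permutation p was 0.1 (0.1 after Benjamini-Hochberg adjustment over 3 pairs), the smallest that 3 against 3 libraries allow, so none can pass 0.05.

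**Figure D3:**
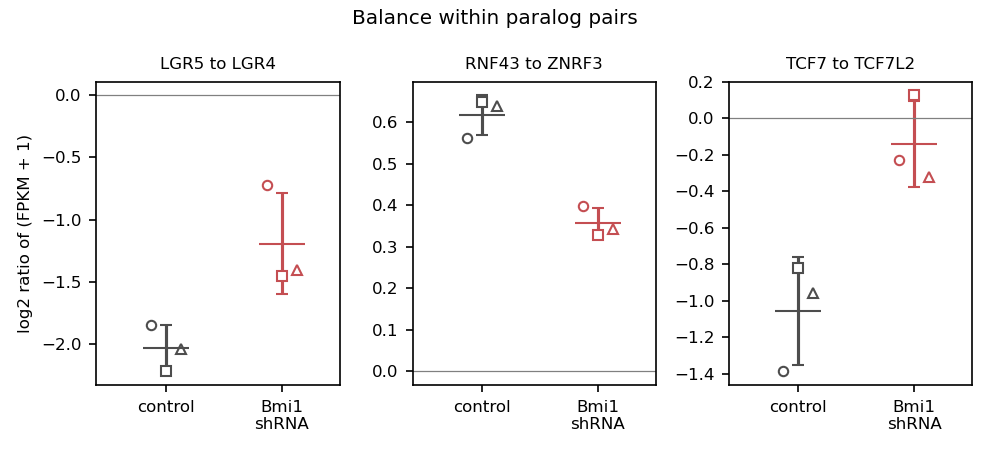
Log2 ratio of FPKM + 1 within each pair (y axis, 1 panel a pair) in control and Bmi1 shRNA libraries (x axis); symbols are replicates 1 (circle), 2 (square) and 3 (triangle), and bars are mean ± SD. The ratio is higher in every Bmi1 shRNA library for LGR5 to LGR4 and TCF7 to TCF7L2, and lower for RNF43 to ZNRF3.

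In the filtered fit TCF7L2 had the largest log2 fold change of the called members, and the genes whose log2 values followed it most closely over the 6 libraries were PGAP3 (Pearson's r = 0.998), ANAPC2 (0.997) and SLC7A7 (0.996), among 5543 genes with a mean of at least 5 FPKM. Since the 6 libraries form 2 groups, a high r here mostly records a fall in the same group. PGAP3, for example, measured 11.3, 10.8 and 11.1 FPKM in control and 8.27, 8.27 and 8.90 FPKM with Bmi1 shRNA.

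Lists of other pathway genes are given with their counts, to be read against the 28.5% of all tested rows called lower and 28.6% higher, or 20.5% and 19.1% with the trend on GC content and length removed. Of 18 partners of TCF factors with a row (coactivators, corepressors and related factors) 15 were tested, of which 10 were lower, 1 higher and 4 not called, with a median log2 fold change of -0.31. TLE1, a Groucho corepressor, fell from 18.2 ± 1.27 to 9.06 ± 0.767 FPKM (SD, n = 3 each), and BCL9L, which links beta-catenin to Pygopus, from 19.6 ± 1.89 to 10.6 ± 1.16 FPKM. The acetyltransferase genes EP300 (4.44 ± 0.223 to 2.27 ± 0.246 FPKM) and CREBBP (4.13 ± 0.307 to 2.29 ± 0.213 FPKM) fell as well. AES, a short Groucho family member, rose from 47.3 ± 1.97 to 60.7 ± 2.40 FPKM (adjusted p from limma for these 5 genes from 0.000428 to 0.00269). CTNNB1, the gene of beta-catenin, averaged 4.06 FPKM in control and 4.64 FPKM with Bmi1 shRNA and did not pass (limma, adjusted p = 0.0740). LEF1 had no row, and TCF7L1 lay under 0.1 FPKM throughout. With the trend on GC content and length removed 5 of the 15 were lower and 2 higher, and the median was -0.0039, against -0.02 over all rows.

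Of 13 tested genes of the destruction complex and its regulators 7 were lower and 2 higher (median -0.22). Once the trend was removed 2 fell and 2 rose (median -0.0062). TNKS2, a tankyrase that marks AXIN for degradation, rose from 2.89 ± 0.0918 to 4.44 ± 0.198 FPKM (SD, n = 3 each), also with the trend removed. AXIN1, CSNK1D, AMER1 and SIAH2 fell in the deposited values, by 0.30, 0.33, 0.37 and 0.32 on the log2 scale, and lost the call once the trend was removed (limma, adjusted p from 0.164 to 0.939). Of 13 tested receptors and transducers 7 were lower and 2 higher (median -0.26), and 1 lower and 3 higher with the trend removed (median -0.0174). LGR6, the third R-spondin receptor, fell from 2.41 ± 0.115 to 1.31 ± 0.282 FPKM, in both fits. LRP5, the Frizzled co-receptor, fell from 34.9 ± 2.12 to 24.5 ± 2.57 FPKM, FZD5 from 2.80 ± 0.0885 to 1.71 ± 0.0233 FPKM and DVL1, a Dishevelled, from 24.2 ± 0.377 to 19.9 ± 0.920 FPKM, while FZD6 rose from 1.80 ± 0.124 to 3.50 ± 0.514 FPKM. None of these last 4 kept its call after that removal (limma, adjusted p from 0.0732 to 0.657).

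WNT ligands and their antagonists were mostly low. Of 25 listed ligand and secretion genes 17 had a row, 8 of them under 0.1 FPKM in every library, and 4 were tested, of which 3 were lower and none higher (median -0.49, or -0.22 and 2 lower with the trend removed). WLS, which carries WNT to the cell surface, fell from 21.7 ± 0.397 to 14.6 ± 0.222 FPKM, WNT7B from 3.77 ± 0.186 to 2.25 ± 0.371 FPKM and WNT3 from 1.70 ± 0.206 to 0.995 ± 0.168 FPKM (SD, n = 3 each; adjusted p from limma 0.000457 to 0.00751). WNT3 lost its call without the trend (limma, adjusted p = 0.141). RSPO2 lay under 0.1 FPKM and the other R-spondin genes had no row. Among 6 tested antagonists 3 were lower and none higher (median -0.23, or -0.18 with 3 lower and 2 higher after removal of the trend): KREMEN1, a DKK receptor, fell from 4.10 ± 0.334 to 2.50 ± 0.357 FPKM, NKD2, the paralog of NKD1, from 2.30 ± 0.119 to 1.62 ± 0.152 FPKM, and TPBG from 3.95 ± 0.480 to 2.83 ± 0.267 FPKM. KREMEN1 lost its call without the trend (limma, adjusted p = 0.216). DKK1, a secreted antagonist of LRP receptors, was the most abundant at 143 ± 11.4 and 146 ± 13.6 FPKM and was not called (limma, adjusted p = 0.829). With the trend removed DKK1 had a log2 fold change of -0.35 (limma, adjusted p = 0.0125).

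Of 26 other genes with a row that are known as TCF targets in intestinal epithelium 21 were tested, of which 11 were lower, 5 higher and 5 not called (median -0.31). After removal of the trend 11 fell and 6 rose (median -0.25). CCND1 (cyclin D1) fell from 20.2 ± 0.425 to 10.9 ± 0.314 FPKM (SD, n = 3 each), ETS2, a transcription factor, from 126 ± 4.86 to 72.5 ± 3.02 FPKM, CD44, a hyaluronan receptor, from 30.9 ± 2.34 to 18.4 ± 1.39 FPKM and BMP4 from 70.8 ± 10.6 to 30.8 ± 1.32 FPKM. SLC12A2, an ion cotransporter abundant in crypts, rose from 15.4 ± 0.754 to 26.6 ± 1.24 FPKM. These 5 were called in both fits (limma, adjusted p up to 0.00142). No difference between lists was tested.

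**Figure D4:**
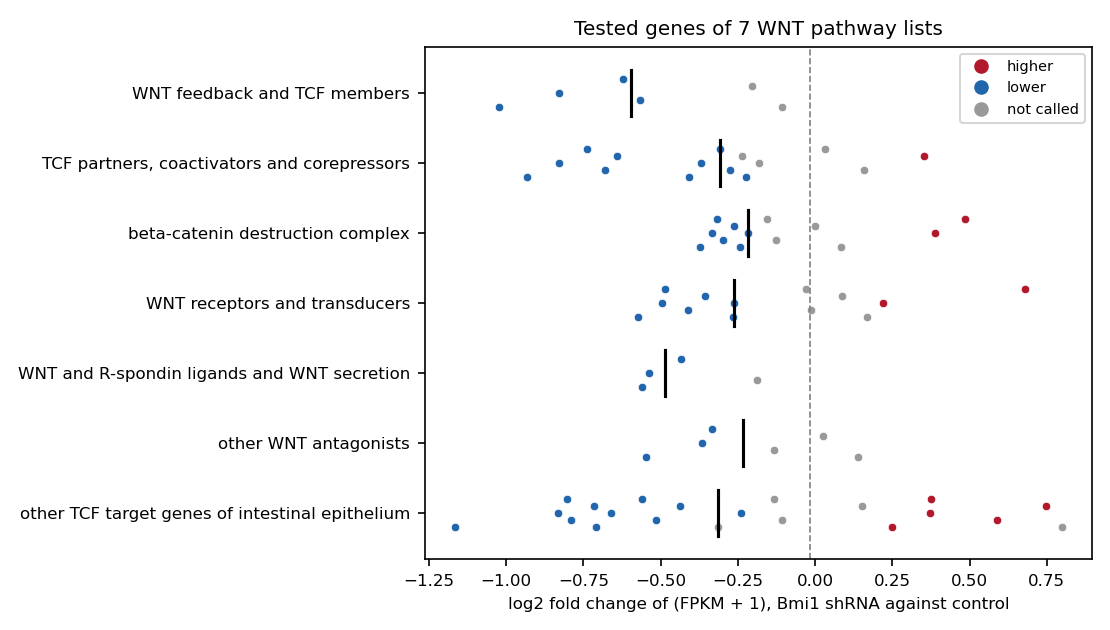
Log2 fold change of FPKM + 1 (x axis) of each tested gene in the 7 lists (y axis), the first being the members; red was called higher, blue lower and grey not called, the black bar is the list's median and the dashed line the median of all tested rows, -0.02. The medians of all 7 lists lie to the left of that line, from -0.60 to -0.22; with the trend on GC content and length removed they run from -0.34 to -0.0039, and those of the TCF partners and the destruction complex are no longer left of the median of all rows.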

How the data were processed

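Poly(A) RNA of 6 libraries was sequenced paired-end, per the labels' protocols, which also mention adipose material that none of these samples is. The values are FPKM as deposited by the authors. Bowtie 0.12.2, HISAT2 2.0 and StringTie 1.3.0 appear in the submitters' processing notes without a stated role, and the build there is mm8, a mouse build, although the organism is human, so the build is unsettled. Columns named Sc and Sh with a number were read as control and Bmi1 shRNA, numbered as in the titles; 0 columns were unused. No single step of whole reads stood out in low values (at most 1.51% of low rows shared 1 ratio to control replicate 1). That check cannot show that steps are absent, since low rows can hold many different counts. Depth is unknown and no count test was run.

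limma 3.58.1 in R 4.3.3 was run on log2(FPKM + 1) over 11016 rows (mean FPKM of 1 or more), group as the sole term, with a variance trend and Benjamini-Hochberg adjustment over all rows; a call is an adjusted p under 0.05. Low members were fitted over all rows. GC content and length (GENCODE 29, longest protein-coding transcript, known for 92.8% of tested rows) were removed, as an alternative, by natural splines with 5 degrees of freedom each. RefSeq windows were matched for 5 of the 10 members (not for AXIN2, LGR5, ZNRF3, NKD1 and NOTUM); those printed are the windows of TCF7L2 and RNF43 that overlap no annotated exon of their gene. The steps were also run on simulated data with independent noise and few changed genes. That setting is unlike this table, so the run does not bear on the calls here.

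The members and lists were chosen with earlier results of these data known. Named are all members, BMI1, in each list up to 5 called genes with the smallest p, and the 3 genes most correlated with the most changed called member. Genes outside this rule were chosen after their values were seen: markers, CTNNB1, LEF1, TCF7L1, RSPO2, DKK1, overlapping genes and those of the closing section. Alternatives covered pseudocount, filter, scaling, variance prior, library weights, replicate block, GC content and length, and each library left out.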

Additional observations from a re-analysis of the deposited data

How the results depend on the processing

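The 4 calls of lower members (TCF7L2, AXIN2, RNF43 and ZNRF3) and the absence of a higher one among tested members held with a pseudocount of 0.1, all 3 scalings, both other variance settings, the replicate block alone and each library left out. Without a filter 3 members were called higher (LGR5, NKD1 and TNFRSF19). With a mean of at least 5 FPKM 3 were called lower, since TCF7L2 was then not tested, and 3478 rows were called in all against 6295. With the trend on GC content and length removed 4057 rows were called, and with the replicate block added 3141; ZNRF3 was then not called (limma, adjusted p = 0.0837) and the log2 fold change of TCF7 was 0.19 in both, its sign turned. The value for LGR4 ran from -0.38 to 0.096 over libraries left out. Same-numbered libraries did not deviate together (r of 0.00374, -0.0791 and -0.0234), beside -0.0757 to 0.0998 for differently numbered ones. With deviations taken from means of 3 libraries, this cannot settle whether libraries were prepared in pairs. The replicate block left 5658 calls, and of the members it ended that of NKD1 alone (limma with no filter, adjusted p = 0.109). Scaling libraries to a sum of 1000000 ended it too (0.0756). The sign of the 3 ratios was the same in all settings tried. Read depth is unknown, which limits the members under 1 FPKM most.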

Other observations

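Some further genes known as direct TCF targets, chosen after their values were seen, were higher with Bmi1 shRNA, as LGR5 was. ASCL2, the transcription factor of crypt stem cells, measured 22.3, 26.6 and 23.6 FPKM in control and 34.4, 39.3 and 36.6 FPKM with Bmi1 shRNA, with no overlap (log2 fold change 0.59, standard error 0.08; limma, adjusted p = 0.00175). SP5, a zinc finger factor, measured 13.9, 15.3 and 14.5 FPKM in control and 17.4, 20.1 and 19.9 FPKM with Bmi1 shRNA (log2 fold change 0.37, standard error 0.07; limma, adjusted p = 0.00610). With the trend on GC content and length removed they were 0.60 and 0.47 and still called (limma, adjusted p = 0.00161 and 0.00177). Genes known to be switched on by TCF thus stood on both sides, with AXIN2, RNF43, ZNRF3 and CCND1 lower and ASCL2 and SP5 higher. In the list that holds CCND1, ASCL2 and SP5, 11 of 21 tested genes were lower and 5 higher. TCF activity itself was not tested.

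For 2 genes the libraries of a group differed by far more than for any tested member. MYC, a further TCF target, was listed at 17.4, 1.89 and 1.57 FPKM in control and at 23.1, 10.5 and 1.59 FPKM with Bmi1 shRNA. CLDN4, a biliary marker, was listed at 115, 0.687 and 86.4 FPKM in control and at 5.67, 5.19 and 0.866 FPKM with Bmi1 shRNA. Neither was called (limma, adjusted p = 0.537 and 0.210). Replicate 1 of the Bmi1 shRNA group, low for LGR4, was the highest library for MYC.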
